A study of Mus musculus with 16 samples.

Results

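Oxidative phosphorylation is carried out by 5 protein complexes of the inner mitochondrial membrane, and the genes for their subunits were followed here in the livers of mice with and without matrin-3. They were chosen by symbol: the mt-Nd, mt-Co, mt-Cytb and mt-Atp genes of the mitochondrial genome, and the nuclear Ndufa, Ndufb, Ndufc, Ndufs and Ndufv genes, Sdha to Sdhd, and the Uqcr, Cox4 to Cox8 and Atp5 genes, without the Ndufaf assembly factors and without symbols ending in -ps. This gave 99 of the 23167 genes present in both count tables, 13 encoded by the mitochondrial genome and 86 in the nucleus. The nuclear genes comprised 40 of complex I, 4 of complex II, 8 of complex III, 17 of complex IV and 17 of complex V. Ndufb4c, Ndufs6b and Cox6c2 fit the symbols but are annotated as processed pseudogenes.

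The 16 mice formed 4 groups of 4, with 1 poly(A) RNA-seq library of the liver per mouse. They were male LKO, male floxed, female LKO and female floxed mice. All carried floxed alleles of Matr3, the gene of the RNA-binding nuclear matrix protein matrin-3, and LKO mice also carried a Cre recombinase driven by the albumin promoter, which is active in hepatocytes. From 7 weeks of age all mice ate a high-fat diet with 60% of its energy from fat for 16 weeks, and they were fasted for 12 hours before the liver was taken. The LKO mice are littermates of the floxed mice per the labels, which say nothing of Cre in the floxed mice, so a group with Cre alone was not analysed here.

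Complexes I to IV pass electrons from NADH and succinate to oxygen, complexes I, III and IV pump protons as they do so, and complex V, the ATP synthase, uses the proton gradient to make ATP. Complexes I, III, IV and V are built from subunits of both genomes, while complex II, succinate dehydrogenase, is encoded in the nucleus alone. The mitochondrial genes are transcribed from the mitochondrial DNA as long precursors that are cut into single messages, whereas each nuclear gene has its own promoter. Hepatocytes are rich in mitochondria and use this pathway to oxidise fatty acids, above all during a fast.

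Parts of the mitochondrial genome have near-identical copies in nuclear chromosomes, so reads of several mitochondrial genes cannot be placed with certainty, and their levels are uncertain. Measured as the percentage of a gene's stretches of 50 bases that recur letter for letter in another annotated transcript, mt-Co2 reached 100%, mt-Co3 99.9%, mt-Atp6 99.5%, mt-Nd4l 98.8% and mt-Nd3 98.0%. The value was 62.2% for mt-Nd4 and 51.1% for mt-Co1. It was 8.19% for mt-Nd2, 7.61% for mt-Nd5 and 0 for mt-Nd1, mt-Nd6, mt-Cytb and mt-Atp8. Only annotated transcripts were searched, and a shared run under 50 bases is not seen by this measure, such as the 43 bases at the end of mt-Atp8. The 0 of mt-Atp8 is uncertain, because this gene lies between mt-Co2 and mt-Atp6. Bases between the copies of these 2 neighbours on chromosome 1 were searched only where annotated. Some of these copies lie on chromosome 2, such as Gm13340, which shares 27.47% of the stretches of mt-Co1. Many lie side by side on chromosome 1. One such pair is mt-Atp6 and its annotated copy Gm10925, in which all 678 bases compared were identical. The first 75 bases of each are shown because they hold both this identity and an overlap of neighbouring genes (GENCODE M21, GRCm38, the mm10 build), mt-Atp6 at chrM:7927-8001 on the plus strand and Gm10925 at chr1:24614577-24614651 on the minus strand. Capitals mark the 43 bases that mt-Atp6 also shares with the end of its neighbour mt-Atp8, with which it overlaps on the same strand, so that these bases of mt-Atp8 are in Gm10925 too.
mt-Atp6: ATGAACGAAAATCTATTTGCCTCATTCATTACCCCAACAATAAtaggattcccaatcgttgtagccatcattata
Gm10925: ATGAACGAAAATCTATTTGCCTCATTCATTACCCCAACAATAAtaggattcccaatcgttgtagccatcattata

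Further copies on chromosome 1 were Gm28661 of mt-Co2 (681 bases), Gm28437 of mt-Co3 (783 bases), Gm10222 of mt-Nd4l (294 bases) and Gm28439 of mt-Nd4 (876 bases), each without a mismatch. Gm29216 matched the last 492 bases of mt-Co1 with 6 mismatches. Gm28438 had 1 mismatch with mt-Nd3 in 345 bases, T3C, counted from the first base of mt-Nd3. The genes mt-Nd4l and mt-Nd4 overlap by 7 bases on the same strand, and mt-Nd5 and mt-Nd6 by 14 bases on opposite strands. How reads with several matching places were counted is not given in the sources used here.

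For 66 of the 86 nuclear genes the RefSeq promoter table (GRCm38.p6) held the 300 bases from 250 before to 50 after the start. They were searched on both strands for CGCATGCG, the core of the site of the respiratory factor NRF1, and for ACTTCCG, an ETS family site bound by GABPA. The NRF1 core stood in 8 of the 66 (12.1%) and in 1.9% of all 27025 promoters of the table, and the ETS letters in 9 of the 66 (13.6%) and in 6.6% of all. The CCAAT letters bound by NFY stood in 42.4% and 37.9%. These are matches of letters and not sites shown to be bound. The following 4 promoters are all on the minus strand, with NRF1 and ETS letters in capitals. That of Uqcr11 (chr10:80406772-80407071) was the only one of the 66 with both, Atp5l (chr9:44920693-44920992) held the NRF1 core, and Sdha (chr13:74350191-74350490) and Ndufa10 (chr1:92473709-92474008) held neither. All 4 genes return among the results.
Uqcr11: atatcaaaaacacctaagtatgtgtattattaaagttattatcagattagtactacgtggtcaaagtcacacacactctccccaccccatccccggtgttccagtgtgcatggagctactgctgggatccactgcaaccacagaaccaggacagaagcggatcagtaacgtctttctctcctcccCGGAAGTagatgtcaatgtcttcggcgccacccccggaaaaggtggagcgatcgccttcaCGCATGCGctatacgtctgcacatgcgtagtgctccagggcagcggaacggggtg
Atp5l: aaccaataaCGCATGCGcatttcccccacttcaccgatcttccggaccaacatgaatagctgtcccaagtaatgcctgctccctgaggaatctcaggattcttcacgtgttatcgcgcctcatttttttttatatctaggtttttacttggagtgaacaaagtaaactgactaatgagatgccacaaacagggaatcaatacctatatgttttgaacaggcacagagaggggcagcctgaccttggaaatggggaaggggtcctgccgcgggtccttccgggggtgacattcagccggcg
Sdha: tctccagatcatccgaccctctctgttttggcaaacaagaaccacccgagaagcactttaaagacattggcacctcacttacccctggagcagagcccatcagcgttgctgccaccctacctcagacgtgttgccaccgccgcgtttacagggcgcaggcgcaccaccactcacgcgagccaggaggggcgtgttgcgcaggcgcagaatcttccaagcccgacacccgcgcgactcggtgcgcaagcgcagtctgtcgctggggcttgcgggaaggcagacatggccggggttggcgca
Ndufa10: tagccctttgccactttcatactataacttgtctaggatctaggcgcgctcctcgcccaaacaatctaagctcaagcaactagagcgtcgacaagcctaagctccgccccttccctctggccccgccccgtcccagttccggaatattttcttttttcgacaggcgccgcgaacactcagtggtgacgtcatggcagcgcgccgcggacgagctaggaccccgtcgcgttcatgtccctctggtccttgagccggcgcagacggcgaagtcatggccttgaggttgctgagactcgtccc

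The libraries held between 30495505 and 36496193 counts, and levels are given as CPM, a gene's counts scaled to a common library size, with TMM factors for all 16 libraries together. Matr3 was lower in LKO livers of both sexes, at 35.4 ± 1.55 CPM in male LKO and 57.8 ± 3.72 CPM in male floxed livers, and 38.1 ± 1.36 CPM in female LKO and 58.1 ± 4.95 CPM in female floxed livers (SD, n = 4 each). All 10 hepatocyte markers were detected, with a sum of 48900 to 87400 CPM. Male floxed 1 and 2 carry mouse numbers far from those of the other mice, and in earlier results of these data female floxed 4 and female LKO 7 lay nearest to the opposite genotype, so counts are also given without either pair. As the female pair was picked from these same data, leaving it out tends to widen the genotype difference. Over all genes the share called in LKO females rose from 9.29% to 19.6%, so higher counts without this pair are no added support. Males and females were deposited as separate tables, so that sex and table cannot be told apart. A p-value here weighs a group difference against the spread between these mice, and in bulk liver fewer cells of a type and less RNA per cell cannot be told apart.

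The 13 mitochondrial genes outweighed the 86 nuclear genes in every library. They took 5.27 to 5.67% of all counts in male LKO and 5.56 to 5.97% in male floxed livers, and 2.35 to 3.01% in female LKO and 3.25 to 4.19% in female floxed livers. The 86 nuclear genes took 1.29 to 1.39% in male LKO and 1.25 to 1.37% in male floxed livers, and 0.978 to 1.13% in female LKO and 1.13 to 1.29% in female floxed livers. The ratio of the mitochondrial to the nuclear sum was 4.02 to 4.22 in male LKO and 4.29 to 4.44 in male floxed livers, and 2.22 to 2.67 in female LKO and 2.84 to 3.40 in female floxed livers. In both sexes the LKO and floxed livers did not overlap in this ratio, and both female groups lay below both male groups. These sums are descriptions without a test, and mt-Co1 alone made up 31.4 to 43.1% of the mitochondrial counts.

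**Figure D1:**
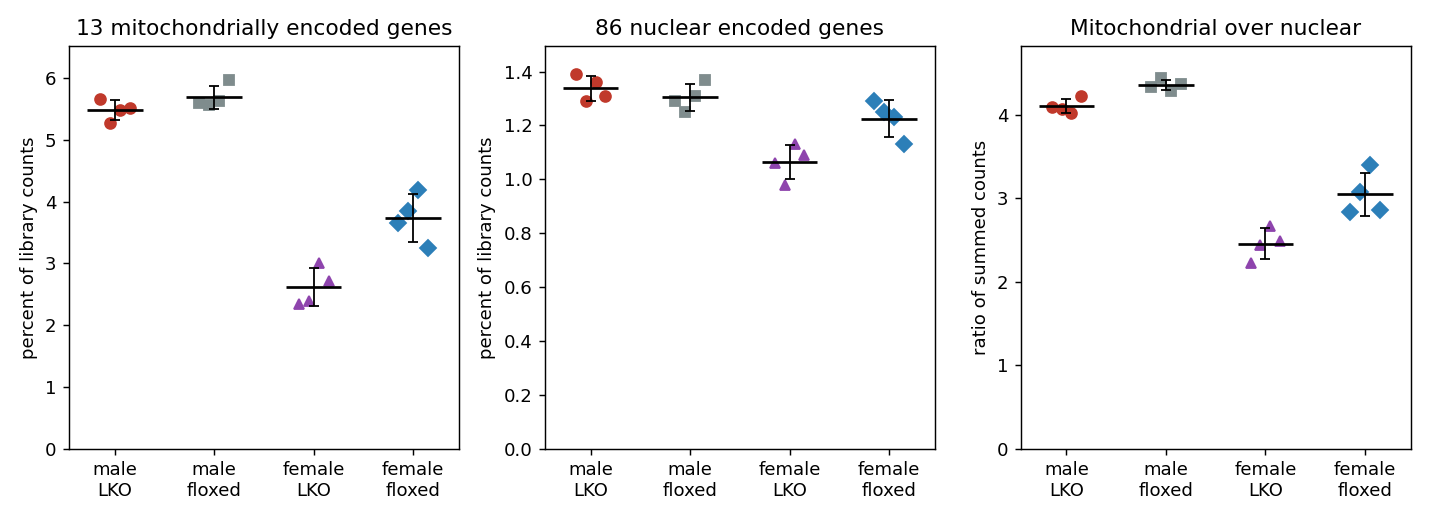
Share of each library's counts taken by the 13 mitochondrially encoded genes (left, percent), by the 86 nuclear encoded genes (middle, percent) and the ratio of both sums (right). Points are libraries, horizontal lines are means and bars are SDs of 4 livers, and the ratio lies between 2.22 and 2.67 in female LKO livers against 2.84 to 3.40 in female floxed livers.

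Per kilobase of exons, mt-Co1, the catalytic subunit of complex IV, was the highest, with mean levels of 5910 CPM per kilobase in female LKO and 14900 CPM per kilobase in male floxed livers. The genes that lie almost wholly in copies stood far lower on that scale, from 8.83 CPM per kilobase for mt-Nd4l to 31.4 CPM per kilobase for mt-Co2 in female LKO livers, and from 32 to 98.8 CPM per kilobase in male floxed livers. The gene mt-Atp8, at 0% by that measure, was lower still, at 5.92 CPM per kilobase in female LKO and 23.4 CPM per kilobase in male floxed livers. The 5 genes almost wholly in copies supplied at most 0.401% of the mitochondrial counts of any library. Among the nuclear genes Cox6a1, a subunit of complex IV, was at 417 CPM per kilobase and Atp5a1, the alpha subunit of the ATP synthase, at 316 CPM per kilobase in male floxed livers. The muscle isoforms Cox6a2 and Cox8b were nearly absent, at 0.0669 and 0.148 CPM per kilobase in male floxed livers, where the isoform Cox8a usual in liver had 363 CPM per kilobase. Of the 86 nuclear genes, 5 in males and 6 in females did not pass the filter on low counts, the pseudogenes Ndufb4c and Cox6c2 and the isoforms Cox4i2, Cox6a2 and Cox8b in both sexes, and the pseudogene Ndufs6b in females.

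**Figure D2:**
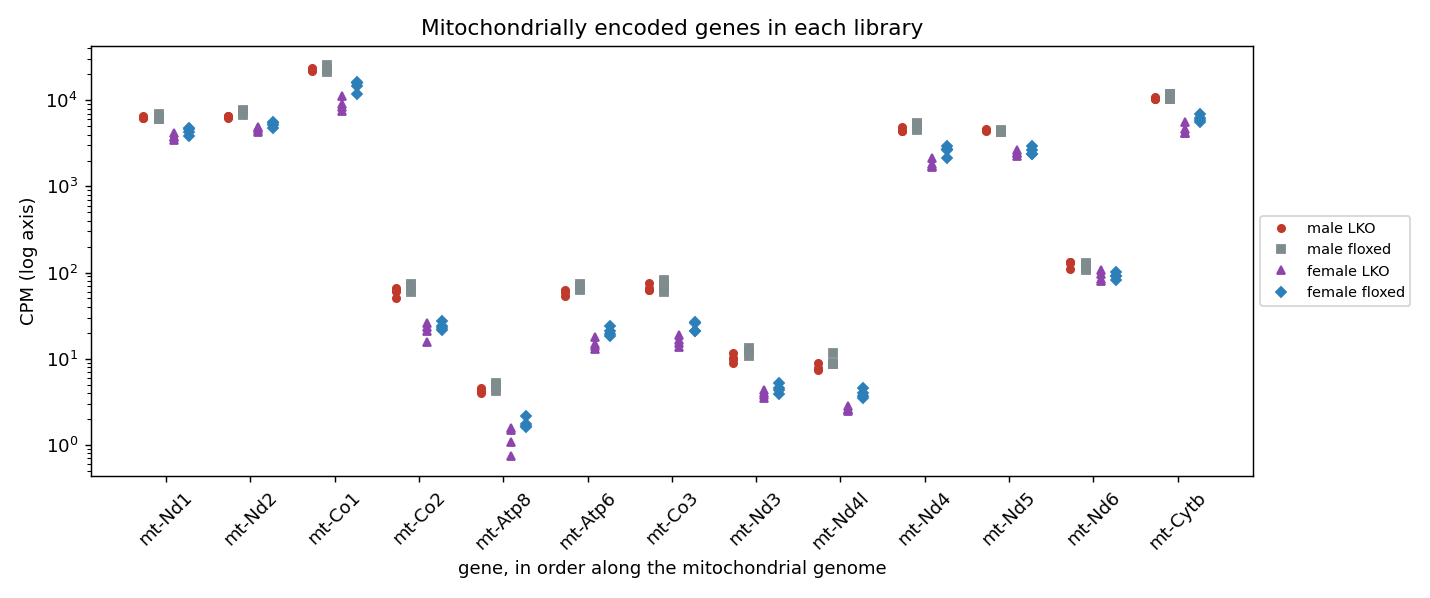
CPM (log axis) of the 13 mitochondrially encoded genes in each of the 16 livers, in the order of the genes along the mitochondrial genome. Each symbol is 1 library, and mt-Co1 spans 7570 to 25400 CPM while mt-Atp8 spans 0.733 to 5.25 CPM.

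In LKO males none of the subunit genes of either genome was called at an edgeR adjusted p of 0.05, in a comparison in which 1.04% of the 15355 genes tested were called and 0.514% were called lower. Of the 13 mitochondrial genes, 10 had log2 fold changes below 0, with a median of -0.14. Of the 81 nuclear genes tested, 51 had values above 0, with a median of 0.03, and the median of all genes tested was -0.01. At an unadjusted p of 0.05, 4 mitochondrial and 6 nuclear genes passed, against 12.3% of all genes tested, DESeq2 called 2 nuclear genes and no mitochondrial gene, and limma-voom called none of either kind. Without male floxed 1 and 2 the nuclear median was -0.08 and 1 nuclear gene, Cox7a1, was called (edgeR adjusted p = 0.0359), where 1.45% of all genes were called.

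The mitochondrial gene mt-Nd2, a proton-pumping subunit of complex I, had 6470, 6310, 6620 and 6510 CPM in LKO males 5 to 8 and 6800, 7590, 7760 and 7500 CPM in floxed males 1 to 4. The groups did not overlap, a separation that 4.14% of the tested genes showed in the same direction and mt-Nd2 alone among the 13. Its log2 fold change was -0.19 (SE 0.07; adjusted p = 0.307, edgeR), and the exact permutation p of 0.0286, two-sided, is the lowest value possible with 70 ways to split 8 livers into 4 and 4. The most abundant message, mt-Co1, had 22800 ± 700 CPM in LKO males and 22900 ± 1680 CPM in floxed males (SD, n = 4 each), with a log2 fold change of -0.01 (SE 0.09). The ribosomal RNAs of the mitochondrial genome, which are not subunit genes, lay at 221 to 257 CPM in LKO males and 280 to 352 CPM in floxed males for mt-Rnr1, without a call (edgeR adjusted p = 0.0835). In females mt-Rnr1 and mt-Rnr2 had log2 fold changes of 0.09 and 0.08, LKO over floxed, also without a call (edgeR adjusted p = 0.758 and 0.783).

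Among the nuclear genes of males the smallest p belonged to a complex II gene. Sdhd, a membrane anchor of succinate dehydrogenase, had 214, 218, 226 and 205 CPM in LKO males 5 to 8 and 169, 174, 192 and 195 CPM in floxed males 1 to 4. All LKO values were higher, with a change of 0.24 on the log2 scale (SE 0.06, adjusted p = 0.121 by edgeR), and DESeq2 called it (adjusted p = 0.0251). Sdha, the flavoprotein that oxidises succinate, lay at 583 to 627 CPM in LKO males and 510 to 580 CPM in floxed males, with a change of 0.15 on the log2 scale (SE 0.06, adjusted p = 0.379 by edgeR). Cox7a1, an isoform of a small complex IV subunit best known from heart and muscle, had 2.82, 3.2, 3.31 and 2.97 CPM in LKO males and 2.49, 2, 1.63 and 1.33 CPM in floxed males 1 to 4. It too was higher in all LKO males at a very low level, with a change of 0.72 on the log2 scale (SE 0.19, adjusted p = 0.135 by edgeR), and DESeq2 called it (adjusted p = 0.0254). Sdhd, Sdha and Cox7a1 were the 3 of 81 nuclear genes higher in LKO males without overlap, and 1, Atp5s, was lower. Over all tested genes 4.14% were lower without overlap, and the share higher without overlap is not given here. Further log2 fold changes without a call were -0.15 for Ndufv3 of complex I, 0.06 for Uqcr11, 0.05 for Uqcrc2, 0.13 for Cox7a2l, an assembly factor of supercomplexes, 0.11 for Atp5b, the catalytic beta subunit, and -0.15 for Atp5s. The low isoform genes Cox6b2 (0.186 to 0.465 CPM in LKO and 0.253 to 0.554 CPM in floxed males) and Ndufa4l2 (1.13 to 1.39 CPM in LKO and 1.36 to 1.96 CPM in floxed males) had -0.36 (SE 0.35) and -0.27 (SE 0.18), also uncalled. Among the ubiquitous isoforms, Cox4i1, Cox6a1, Cox6b1, Cox7a2, Cox7b, Cox8a and Ndufa4 had log2 fold changes between -0.03 and 0.12, again without a call.

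**Figure D3:**
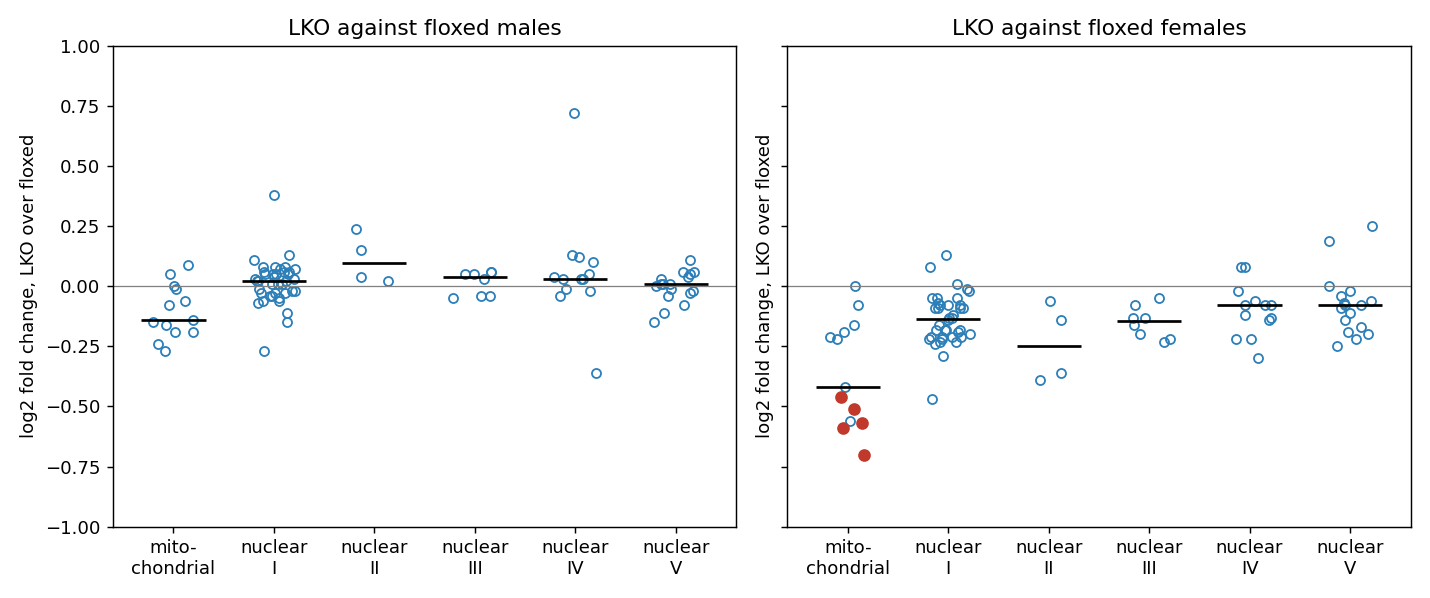
Log2 fold changes, LKO over floxed, in males (left) and females (right) for the mitochondrially encoded genes and for the nuclear encoded genes of complexes I to V. Each circle is a gene tested, filled where edgeR's adjusted p was under 0.05, and the horizontal lines are medians, -0.14 in males and -0.42 in females for the mitochondrial genes.

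In LKO females 5 of the 13 mitochondrial genes were called lower and none of the 80 nuclear genes tested was called, where 9.29% of the 15432 genes tested were called and 4.85% were called lower. The 5 were mt-Co1 and mt-Co3 of complex IV, mt-Nd4 and mt-Nd4l of complex I and mt-Atp6 of complex V. The log2 fold changes of the 13 mitochondrial genes ran from -0.70 to 0.00 with a median of -0.42. Those of the nuclear genes ran from -0.47 to 0.25 with a median of -0.13, and 72 of the 80 lay below 0, while the median of all genes tested was 0.00. At an unadjusted p of 0.05, 7 mitochondrial and 17 nuclear genes passed, against 27.7% of all genes tested, and DESeq2 called 2 nuclear genes and limma-voom none. Whether the mitochondrial and nuclear genes differed from each other was not tested, since the members were chosen with results known.

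The largest of these differences was that of mt-Co1 (ENSMUSG00000064351, chrM:5328-6872, plus strand). It had 7570, 8430, 11300 and 9180 CPM in LKO females 5 to 8 and 14700, 16000, 16500 and 11800 CPM in floxed females 1 to 4. The groups did not overlap, but LKO 7 and floxed 4 lay close to each other. Its log2 fold change was -0.70 (SE 0.18; adjusted p = 0.0377, edgeR). Its share of the mitochondrial counts was 31.4 to 37.5% in LKO females and 38.4 to 43.1% in floxed females.

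The smallest p was that of mt-Co3, a core subunit beside mt-Co1 in complex IV, at chrM:8607-9390. It had 15, 13.6, 18.6 and 16.4 CPM in LKO females and 26.3, 21.2, 26 and 20.8 CPM in floxed females, with a change of -0.57 on the log2 scale (SE 0.12, adjusted p = 0.0201 by edgeR). The proton channel subunit mt-Atp6 had 14.9, 13, 17.8 and 14.2 CPM in LKO females and 19.2, 20.8, 23.9 and 18.5 CPM in floxed females, with a change of -0.46 on the log2 scale (SE 0.12, adjusted p = 0.0365 by edgeR). Every LKO female lay below every floxed female in both genes. Of the complex I subunits that line the proton path, mt-Nd4 (chrM:10167-11544) had 1670, 1740, 2130 and 1810 CPM in LKO females and 2720, 2660, 2910 and 2140 CPM in floxed females, with a change of -0.51 on the log2 scale (SE 0.13, adjusted p = 0.0400 by edgeR). LKO 7 and floxed 4 differed by little there. Its neighbour mt-Nd4l (chrM:9877-10173) had 2.47, 2.84, 2.56 and 2.63 CPM in LKO females and 3.52, 3.99, 4.61 and 3.64 CPM in floxed females, with a change of -0.59 on the log2 scale (SE 0.14, adjusted p = 0.0322 by edgeR). Its level was low, from 80 to 89 counts in each LKO female and from 114 to 148 counts in each floxed female.

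Each of the 5 calls was lost without some single libraries. The calls of mt-Co1, mt-Nd4, mt-Nd4l and mt-Atp6 were lost without LKO female 5, 6 or 8 or floxed female 1, 2 or 3, with edgeR adjusted p of up to 0.117 for mt-Co1, 0.12 for mt-Nd4, 0.095 for mt-Nd4l and 0.0949 for mt-Atp6. That of mt-Co3 was lost without LKO 5, LKO 6, floxed 1 or floxed 3, with edgeR adjusted p of up to 0.0649. Without LKO 5, LKO 6, floxed 1 or floxed 3 no mitochondrial gene was called, and without LKO 8 or floxed 2 only 1 was. Of all genes 3.24%, 3.97%, 2.53%, 4.25%, 4.36% and 3.03% were called in these omissions, in the order named. Without female floxed 4 and female LKO 7 together, 6 mitochondrial and 13 nuclear genes were called, where 19.6% of all genes were. More calls were to be looked for there, since this pair was picked for lying nearest to the opposite genotype. In the fit of all 16 libraries, 6 mitochondrial and 6 nuclear genes were called in females, where 17.7% of all genes were. The nuclear counts lie below these shares, but the shares count calls in either direction. In the main fit 72 of the 80 nuclear genes lay below 0, and shares called lower alone are not given for these alternatives.

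The 5 called genes were among the 7 with over 50% of their sequence in annotated copies. When the counts of each mitochondrial gene were summed with those of its annotated copies, an alternative chosen after seeing the data, 2 calls were left, and mt-Co3, mt-Nd4l and mt-Atp6 missed the threshold at edgeR adjusted p of 0.145, 0.0602 and 0.0631. Of the 6 genes with under 10% of their sequence in an annotated copy, none was called by edgeR, 2 passed an unadjusted p of 0.05 and their median log2 fold change was -0.21, beside -0.46 for the 5 genes almost wholly in copies. The place of mt-Atp8 among the 6 is uncertain, since its neighbours mt-Co2 and mt-Atp6 both have copies on chromosome 1 and only annotated transcripts were searched. Among the 6, mt-Cytb, the cytochrome b of complex III, had 4140, 4150, 5600 and 4650 CPM in LKO females and 5970, 6260, 6940 and 5590 CPM in floxed females. LKO 7 lay just above floxed 4, and the log2 fold change was -0.42 (SE 0.14; adjusted p = 0.0915, edgeR). The other uncalled genes had log2 fold changes of -0.22 for mt-Nd1, -0.19 for mt-Nd2, -0.21 for mt-Nd3, -0.08 for mt-Nd5, 0.00 for mt-Nd6, -0.16 for mt-Co2 and -0.56 for mt-Atp8. The last rests on 23 to 52 counts in each LKO female and 53 to 69 counts in each floxed female. In all, 6 of the 13 genes had LKO females below floxed females without overlap, against 7.91% of all tested genes, and the 6 lie on 1 genome and are not independent.

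Among the nuclear genes of females complex II had the lowest median log2 fold change of the 5 complexes, -0.25 over its 4 genes, without a call. The medians of the others were -0.13 for complex I, -0.15 for complex III, -0.08 for complex IV and -0.08 for complex V. Sdha (ENSMUSG00000021577, chr13:74322254-74350280, minus strand) had 361, 342, 394 and 388 CPM in LKO females 5 to 8 and 463, 519, 521 and 400 CPM in floxed females 1 to 4. The groups did not overlap, LKO 7 and floxed 4 lying next to each other, and the log2 fold change was -0.36 (SE 0.11; adjusted p = 0.0606, edgeR). DESeq2 called it (adjusted p = 0.0158). Sdhb, the iron-sulfur subunit, had 113, 107, 148 and 114 CPM in LKO females and 170, 178, 164 and 121 CPM in floxed females. LKO 7 lay within the floxed range, and the log2 fold change was -0.39 (SE 0.14; adjusted p = 0.101, edgeR). The membrane anchors had log2 fold changes of -0.14 for Sdhc and -0.06 for Sdhd.

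In the other complexes of females most of the named nuclear genes also had log2 fold changes below 0 without a call. For complex I, Ndufa5 had 42.2 to 50.2 CPM in LKO females and 50.7 to 66.6 CPM in floxed females, with a change of -0.29 on the log2 scale (SE 0.09, adjusted p = 0.0795 by edgeR), and Ndufa7 had -0.23. For complex III, Uqcrc2 and Uqcrc1, the core proteins, had -0.23 and -0.20. For complex IV, Cox6c had 165 to 204 CPM in LKO females and 201 to 236 CPM in floxed females, with a change of -0.30 on the log2 scale (SE 0.09, adjusted p = 0.0721 by edgeR), and Cox7c had -0.22. For the ATP synthase, Atp5c1, the gamma subunit of the rotor, had -0.22 and Atp5l -0.20. Ndufa5, Ndufa7, Sdha, Cox7c, Atp5c1 and Atp5l were among the 10 nuclear genes whose LKO females lay below the floxed females without overlap, 10 of 80 against 7.91% of all tested genes. Isoform genes had values of either sign, with log2 fold changes of 0.08 for Cox7a2, 0.08 for Cox7a2l, -0.22 for Cox7a1 and -0.47 for Ndufa4l2, none called.

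The difference between the 2 sexes in the LKO effect was tested in 1 model of all 16 libraries, in which 4.42% of 16126 genes were called and 2.45% were called in the negative direction. None of the 13 mitochondrial genes was called, with a median difference, females minus males, of -0.27 on the log2 scale, and 3 of them passed an unadjusted p of 0.05, against 20.5% of all genes. The nearest was mt-Co1, with a difference of -0.68 (SE 0.20, edgeR adjusted p = 0.0582). It was called by DESeq2 (adjusted p = 0.00225) and limma-voom (adjusted p = 0.0389). Of 81 nuclear genes, Sdha alone was called, with a difference of -0.50 (SE 0.12, edgeR adjusted p = 0.0277), with LKO values below the floxed values in females and above them in males. Its call was lost without male LKO 7, male LKO 8, male floxed 1, female LKO 5, female LKO 6, female floxed 2 or female floxed 3, with edgeR adjusted p of up to 0.0648, and without male floxed 1 and 2 together (0.101). Without female floxed 4 and female LKO 7, 5 mitochondrial and 10 nuclear genes were called, where 12.5% of all genes were. The other complex II genes had differences of -0.41 for Sdhb, -0.30 for Sdhd and -0.18 for Sdhc, none called.

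**Figure D4:**
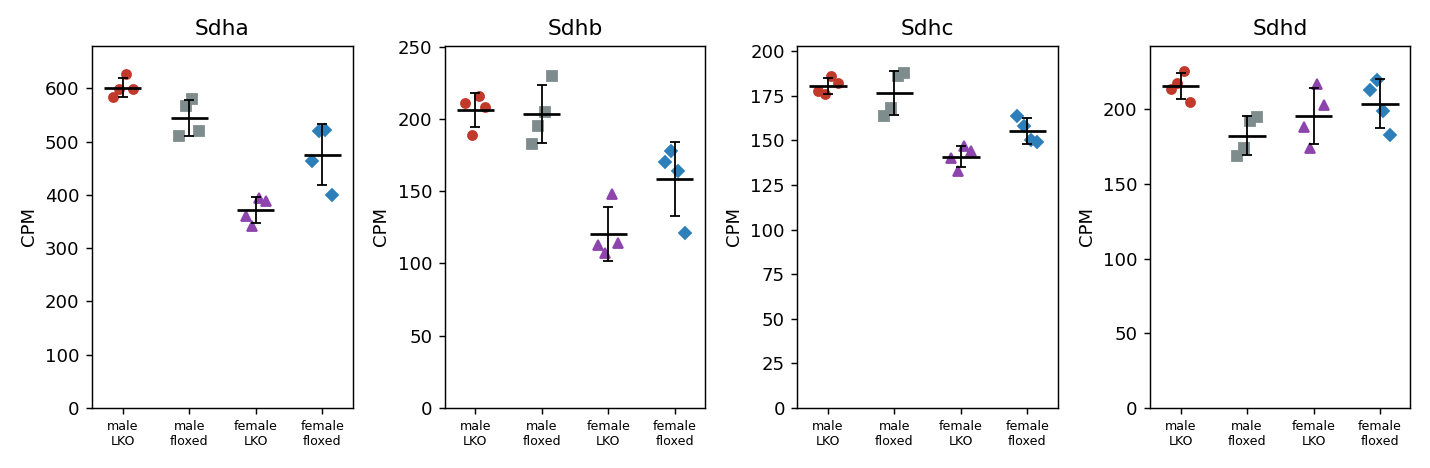
CPM of the 4 genes of succinate dehydrogenase in each liver, with the mean (line) and SD (bar) of 4 livers per group and each axis starting at 0. Sdha lies at 583 to 627 CPM in male LKO against 510 to 580 CPM in male floxed livers, and at 342 to 394 CPM in female LKO against 400 to 521 CPM in female floxed livers.

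Averaged over both sexes, 5 mitochondrial genes and 1 nuclear gene were called lower in LKO livers and none higher, where 8.55% of 16126 genes were called and 4.5% were called lower. The 5 were the same as in females, whose libraries enter both comparisons. In males alone none of these 5 genes was called. The log2 fold changes in males were -0.01 for mt-Co1, -0.06 for mt-Co3, -0.14 for mt-Nd4, -0.19 for mt-Atp6 and -0.27 for mt-Nd4l. Their log2 fold changes over both sexes were -0.43 for mt-Nd4l (SE 0.09, edgeR adjusted p = 0.0079), -0.32 for mt-Atp6 (SE 0.07, edgeR adjusted p = 0.0107), -0.32 for mt-Nd4 (SE 0.08, edgeR adjusted p = 0.0199), -0.32 for mt-Co3 (SE 0.08, edgeR adjusted p = 0.0285) and -0.35 for mt-Co1 (SE 0.10, edgeR adjusted p = 0.0377). The calls of mt-Nd4l, mt-Atp6 and mt-Nd4 held in each of 28 alternatives, among them the omission of any 1 library. That of mt-Co1 was lost without any 1 of the male LKO livers, male floxed 3 or 4, female LKO 5, 6 or 8 or female floxed 1, 2 or 3, and without male floxed 1 and 2 together (edgeR adjusted p up to 0.0799). That of mt-Co3 was lost without male LKO 6, 7 or 8, male floxed 3 or 4, female LKO 5 or 6 or female floxed 1 or 3 (edgeR adjusted p up to 0.0626) and with its copy added (0.49). The nuclear gene was Ndufa1, an X-linked accessory subunit of complex I (chrX:37187588-37191163, minus strand), with a change of -0.18 on the log2 scale (SE 0.05, adjusted p = 0.0491 by edgeR). It had 54.7 to 63.5 CPM in LKO males and 61.0 to 64.2 CPM in floxed males, and 37.8 to 48.5 CPM in LKO females and 47.1 to 53.5 CPM in floxed females, overlapping in both sexes. Its call was lost without any 1 of the 16 libraries other than male LKO 5, female LKO 7 and female floxed 4 (edgeR adjusted p up to 0.102).

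The floxed mice of the 2 sexes were compared next. All 13 mitochondrial genes were lower in floxed females than in floxed males, and each call held in 29 alternatives, where 22.9% of 16126 genes were called and 11.6% were called lower. Their log2 fold changes ran from -1.71 to -0.37, with a median of -0.94, and in every one the floxed females lay below the floxed males without overlap, a pattern that 12.5% of tested genes showed. Of the 81 nuclear genes tested, 30 were called lower and 1 higher, with a median of -0.18, and 23 were lower without overlap. The median of all genes tested was 0.00. The floxed livers are also the controls of the LKO comparisons, and sex and table cannot be told apart.

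The lowest ratio was that of mt-Atp6, with 19.2, 20.8, 23.9 and 18.5 CPM in floxed females 1 to 4 and 73.1, 62.3, 69.5 and 64.4 CPM in floxed males 1 to 4 (log2 fold change -1.71, SE 0.10, edgeR adjusted p = 9.04e-09). Of the highly expressed genes, mt-Cytb had 5970, 6260, 6940 and 5590 CPM in floxed females and 10300, 10500, 11800 and 12000 CPM in floxed males (log2 fold change -0.85, SE 0.12, edgeR adjusted p = 0.000101). For mt-Co1 the values were 14800 ± 2090 CPM in floxed females and 22900 ± 1680 CPM in floxed males (SD, n = 4 each), with a change of -0.64 on the log2 scale (SE 0.14, adjusted p = 0.00405 by edgeR). The genes almost wholly within copies had a median log2 fold change of -1.48, and the 6 with under 10% in an annotated copy had a median of -0.65. The first were mt-Co3 (-1.57), mt-Co2 (-1.48), mt-Nd3 (-1.41) and mt-Nd4l (-1.27) beside mt-Atp6, and the second mt-Nd5 (-0.76), mt-Nd1 (-0.53), mt-Nd2 (-0.50) and mt-Nd6 (-0.37) beside mt-Cytb and mt-Atp8. The last of these, with few counts, a 43-base run shared with mt-Atp6 and Gm10925 and an uncertain place in this group, had -1.42.

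The annotated copies on chromosome 1 were lower in floxed females as well, with log2 fold changes between -1.22 and -1.99 over 7 copies. Copies on chromosome 2 had similar counts in both sexes, summed over all livers of a sex and without a test. Gm13340 of mt-Co1 had 3913 counts in males and 3355 in females, Gm13341 of mt-Co2 605 and 608, and Gm13339 of mt-Nd2 556 and 517. By the same sums Gm10925 had 27618 counts in males and 6512 in females. Gm10925, shown above beside mt-Atp6, had 28.9 ± 4.66 CPM in floxed females and 109 ± 11.3 CPM in floxed males (SD, n = 4 each). With copies added to each gene, mt-Atp6 had -1.83 and mt-Nd4l -1.59. The share of reads that came from the nuclear copies was not tested. The ribosomal RNAs of the same genome did not pass the test, at log2 fold changes of -0.08 for mt-Rnr1 and -0.18 for mt-Rnr2. In these poly(A) libraries they took only 0.0607 to 0.072% of counts in floxed females and 0.0651 to 0.0704% in floxed males.

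**Figure D5:**
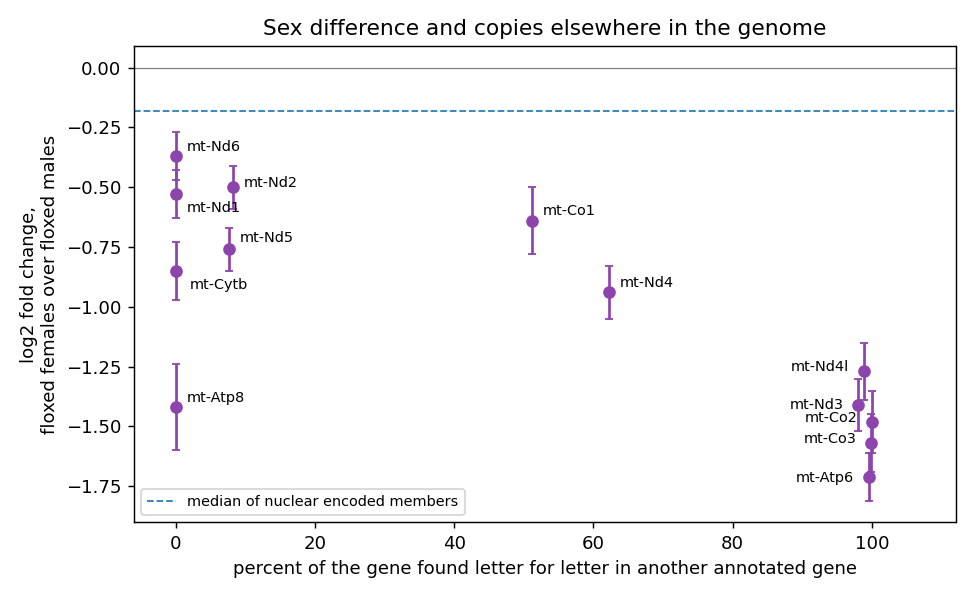
Log2 fold change of each mitochondrially encoded gene, floxed females over floxed males, against the percent of the gene found letter for letter in another annotated gene. Bars are standard errors of the edgeR fit, the dashed line is the nuclear median of -0.18, and the genes near 100% lie between -1.71 and -1.27.

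Nuclear genes of 4 complexes besides complex II were among those lower in floxed females, with 14 called lower for complex I, 2 for complex III, 6 for complex IV and 6 for complex V, beside Sdhb and Sdhc of complex II. The smallest p belonged to Ndufa10 (chr1:92439010-92473860, minus strand), an accessory subunit of complex I, with 119, 122, 113 and 110 CPM in floxed females and 162, 155, 170 and 178 CPM in floxed males. The groups lay well apart, with a change of -0.52 on the log2 scale (SE 0.07, adjusted p = 6.72e-05 by edgeR). Cox7a2, the isoform of its complex IV subunit found in liver, had 94.2, 82.4, 80.9 and 74.2 CPM in floxed females and 107, 113, 123 and 120 CPM in floxed males, with a change of -0.48 on the log2 scale (SE 0.07, adjusted p = 0.000242 by edgeR). Cox5a had -0.37 and Ndufa4 had -0.37, a subunit now assigned to complex IV that is counted under complex I here by its symbol. Ndufb6, Ndufv3, Ndufa1, Ndufs5, Ndufs3, Ndufb4, Atp5l and Atp5mpl had log2 fold changes between -0.39 and -0.29. Each of these 12 calls held in the 29 alternatives. Cox6b2, the testis isoform of a complex IV subunit, was the one gene called higher, at 0.894 ± 0.376 CPM in floxed females and 0.405 ± 0.130 CPM in floxed males (SD, n = 4 each; log2 fold change 1.13, adjusted p = 0.0228 by edgeR).

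The count of nuclear calls depended on the libraries. It was 13 without male floxed 4, 16 without male floxed 3 and 16 without female floxed 4, against 31 of 81 with all libraries. Of all genes, 19.3%, 17.5% and 18.4% were called in these omissions, against 22.9% with all libraries. Among the omissions of 1 library it was highest, at 33, without male floxed 1 or female floxed 1, where 21.7% and 18.2% of all genes were called. Sdha had a log2 value of -0.19 (adjusted p = 0.115 by edgeR) and Sdhd of 0.16 (edgeR adjusted p = 0.162).

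The wider pathway was followed in 8 further lists. In LKO males none of the 223 genes tested was called by edgeR or limma-voom, 21 passed an unadjusted p of 0.05 and DESeq2 called 2. In LKO females 10 of the 223 were called, a share below the 9.29% of all genes. Of 12 tested regulators 2 rose, Ppargc1a, the coactivator of mitochondrial gene programmes, with 23.7 ± 8.56 CPM in LKO and 12.3 ± 1.87 CPM in floxed females (SD, n = 4 each, log2 fold change 0.94, edgeR adjusted p = 0.0463), and its relative Pprc1 (0.50, edgeR adjusted p = 0.0286). Of 14 genes of the citric acid cycle, Fh1, fumarate hydratase, rose, at 357 ± 84.7 CPM in LKO and 185 ± 21.3 CPM in floxed females (SD, n = 4 each, log2 fold change 0.94, edgeR adjusted p = 0.0118), while Idh2 (-0.54) and Suclg2 (-0.39) fell. Of 18 genes of cytochrome c, ubiquinone synthesis and electron entry, Coq7 rose (0.39) and Etfa, which feeds electrons from fatty acid oxidation, fell (-0.35). Of 77 mitochondrial ribosome genes Mrpl20 rose (0.36) and Mrpl39 fell (-0.30), and of 12 carriers Slc25a10, the dicarboxylate carrier, fell (-0.45). None of 32 genes for mitochondrial DNA transcription and RNA, 47 assembly factors or 11 stress genes was called in females by edgeR. Over the 8 lists 26 genes were called lower and 10 higher without female floxed 4 and female LKO 7, where 19.6% of all genes were called, against 5 and 5 with them. Medians of the 3 lists were -0.06, -0.13 and 0.18 on the log2 scale.

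In the difference between the sexes, where 4.42% of all genes were called, Pprc1 and Fh1 were again called higher and Idh2, Suclg2, Slc25a10 and Mrpl39 lower, joined by Atf5, a transcription factor of mitochondrial stress, higher with a difference of 1.49 (edgeR adjusted p = 0.0276) and by Acad9, a complex I assembly factor, lower (-0.55, edgeR adjusted p = 0.029). Without male floxed 1 and 2 none of the 223 genes was called in that difference by edgeR, and 35 passed an unadjusted p of 0.05, where 1.45% of all genes were called. Over both sexes 4 of 47 assembly factors were called lower, against 4.5% of all genes, Ttc19, Tmem126b, Ndufaf7 and Cox16. In the other lists 1 gene of cytochrome c, ubiquinone synthesis and electron entry was called lower there. Called higher were 2 mitochondrial ribosome genes and 1 gene each of the regulators, citric acid cycle, stress and carrier lists, where 8.55% of all genes were called. Between floxed females and floxed males, 25 of 77 mitochondrial ribosome genes were lower and 2 higher, and 15 of 47 assembly factors were lower, among them Cox19 (-0.74), against 11.6% of all genes tested. For mitochondrial DNA transcription and RNA, 6 of 32 were lower and 3 higher, among them Polg, the mitochondrial DNA polymerase (0.32), and Fastkd1 (-0.43).

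Markers of cell types moved beside these results, and their part was not tested. In LKO females 6 of 10 sinusoidal endothelial markers were called lower, against 4.85% of all genes, with a summed level of 202 to 254 CPM in LKO and 275 to 294 CPM in floxed females, and 2 of 8 stellate cell markers, Lrat and Reln, were lower, with sums of 274 to 305 CPM in LKO and 311 to 374 CPM in floxed females. Of 10 hepatocyte markers 2 were lower and 3 higher in LKO females, where 9.29% of all genes were called. Their log2 fold changes ran from -0.88 to 1.3, with a median of 0.46. Against that median, Alb was at 25500 ± 5740 CPM in LKO and 46700 ± 3460 CPM in floxed females (SD, n = 4 each). Of the 10 Kupffer cell markers none was called in LKO females, and 9 were higher in floxed females than in floxed males, with sums of 789 to 1210 CPM in floxed females and 287 to 460 CPM in floxed males. In that comparison of floxed mice 1826 of all 16126 genes tested were called higher. The 7 neutrophil markers tested had log2 fold changes of 0.65 to 1.63 in LKO females, none called by edgeR and 1 at an unadjusted p of 0.05, with sums of 28.3 to 117 CPM in LKO and 12.8 to 79.3 CPM in floxed females. DESeq2 and limma-voom called none of them, and without female floxed 4 and LKO 7 edgeR called 6 higher, where 19.6% of all genes were called in either direction. Of the same 7, 5 were higher in floxed females than in floxed males, with sums of 12.8 to 79.3 CPM in floxed females and 5.6 to 10.9 CPM in floxed males. The adipocyte list was lower in LKO females through Car3, which hepatocytes also express, with sums of 64.4 to 257 CPM in LKO and 573 to 1580 CPM in floxed females. Between floxed females and floxed males the stellate markers Col1a1 and Col3a1, the adipocyte markers Cfd and Car3 and the hepatocyte markers Ttr and Serpina1c were lower in floxed females, and Fgb was higher. Of the cholangiocyte markers 1 of 5, Epcam, was lower in LKO females, and none of the erythroid or lymphocyte markers was called there. In LKO males none of the 62 markers tested was called by edgeR, 5 passed an unadjusted p of 0.05 and DESeq2 called 1. Skeletal muscle markers summed to between 0.484 and 4.83 CPM in all libraries, and Mb was not analysed here.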

How the data were processed

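The authors deposited whole-number counts per gene, 1 table per sex, with Ensembl identifiers. Livers were extracted with TRIzol and made into directional poly(A) libraries by Novogene, per the labels' protocols, and reads were placed on mm10, as the submitters' processing notes name it. The aligner, the counting program, its strand setting and its rule for reads with several matches are not given in the sources used here. Symbols and coordinates came from GENCODE M21. The members and lists were chosen with earlier results of these data known.

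Each sex was fitted alone with edgeR 4.0.16 in R 4.3.3 (filterByExpr with a minimum count of 10 and total of 15, TMM, quasi-likelihood F-test, two-sided, Benjamini-Hochberg over all genes tested, called under 0.05). A fit of the 16 libraries gave the other comparisons. Exact permutation tests used log2 (CPM + 0.5). Named were all 13 mitochondrial genes, nuclear genes called (up to 12 of smallest p per comparison), the 2 of smallest p per complex and sex, complex II, the isoform sets and up to 4 genes per list, with every called list gene eligible, and 1 named gene is not reported here. Alternatives were DESeq2 1.42.0, limma-voom (limma 3.58.1), other scalings and filters, robust dispersion, the 16-library fit and omitted libraries, and, chosen after seeing the data, copies summed. Replicate libraries were checked for copies, and chi-square per degree of freedom was at least 12.7 in all pairs. The procedure was tested on simulated data.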

Additional observations from a re-analysis of the deposited data

Results flagged for a closer look

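A library was marked where it lay far from the other 3 of its group relative to the group's range. This was so in 10 of 212 groups of values examined, where chance alone gives about 10.6, so the number itself is not out of the ordinary. Female LKO 7 accounted for 4 of them. It had 148 CPM of Sdhb against 107 to 114 CPM in the other LKO females, 210.0 CPM of Ndufa4 against 184 to 185 CPM, 58.7 CPM of Ndufv3 against 48.4 to 49.3 CPM and 35.1 CPM of Ndufb4 against 32.8 to 33.0 CPM. Male floxed 4 was high in 3, with 68.6 CPM of Ndufs5 against 54.9 to 55.9 CPM, 1.96 CPM of Ndufa4l2 against 1.36 to 1.46 CPM, and 5.97% of counts from the mitochondrial genes against 5.56 to 5.63% in the other floxed males. Male floxed 2 had 11.7 CPM of mt-Nd4l against 8.67 to 8.92 CPM. Female floxed 1 had 91.6 CPM of Atp5mpl against 75.2 to 77.5 CPM, and female floxed 2 had 96.3 CPM of Atp5l against 98.1 to 98.4 CPM.

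The LKO effect of Sdha differed between the sexes by -0.50 on the log2 scale, females minus males, in the edgeR test of the difference itself (adjusted p = 0.0277), with all 4 LKO females below and all 4 LKO males above the floxed mice of their sex.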

How the results depend on the processing

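Counts are of members called. In LKO males the nuclear count was 2 with DESeq2 and 1 without male floxed 1 and 2, against 0. Of all genes tested, 2% and 1.45% were called in these settings, against 1.04%. In LKO females the nuclear count of 0 became 2 with DESeq2, 1 with upper quartile scaling, 8 with library totals, 6 in the 16-library fit and 13 without female floxed 4 and LKO 7, and the mitochondrial count of 5 became 2 with copies summed. Of all genes, 9.48% were called with DESeq2, 9.31% with upper quartile scaling and 10.9% with library totals. The share was 17.7% in the 16-library fit, 19.6% without female floxed 4 and LKO 7 and 9.26% with copies summed, against 9.29%. For the difference between the sexes the mitochondrial count of 0 became 1 with DESeq2, limma-voom, the 1 CPM filter or robust dispersion, 2 with library totals and 5 without female floxed 4 and LKO 7, and the nuclear count of 1 became 2, 6 and 10 with DESeq2, library totals and without those females, and 0 without male floxed 1 and 2. Shares of all genes called were 5.79% with DESeq2, 4.22% with limma-voom, 5.88% with the 1 CPM filter and 4.35% with robust dispersion. They were 5.59% with library totals, 12.5% without those females and 1.45% without male floxed 1 and 2, against 4.42%. Over both sexes the mitochondrial count of 5 became 8 with DESeq2 and 8 without those females, and the nuclear count of 1 became 2 with DESeq2, 5 with library totals, 7 without those females, and 0 with median-of-ratios scaling, with no filter and without male floxed 1 and 2. Of all genes, 8.64% were called with DESeq2, 17.8% without those females and 9.02% with library totals. With median-of-ratios scaling, no filter and without male floxed 1 and 2 it was 8.45%, 5.03% and 6.51%, against 8.55%. Between floxed females and floxed males the nuclear count of 31, of 81 tested in the main fit, became 19 with upper quartile scaling, 16 with library totals and 18 without those females. Of all genes 23.1%, 22.8% and 20.1% were called in these settings, against 22.9%. The cause was not tested.

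Leaving out 1 library at a time, the mitochondrial counts ranged from 0 to 0 in males, 0 to 6 in females, 0 to 2 for the difference, 3 to 8 over both sexes and 13 to 13 between floxed females and floxed males. The nuclear counts ranged from 0 to 0, 0 to 5, 0 to 3, 0 to 5 and 13 to 33 in the same order. Shares of all genes called ranged from 0.444 to 1.15%, 2.53 to 14.7%, 2.49 to 8.77%, 4.81 to 13.8% and 17.5 to 23.9% in that order.

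Values that changed sign were uncalled, and most lay near 0, except Cox6b2 (-0.36 in LKO males). In LKO males mt-Nd1 was 0.00 with upper quartile scaling, library totals, no filter, the 1 CPM filter and the 16-library fit, and mt-Co3 was 0.09 with copies summed. Without male floxed 1 and 2, the values in LKO males were -0.08 for mt-Nd1, -0.02 for Uqcr11, -0.04 for Uqcrc2, -0.08 for Sdhb, -0.05 for Sdhc, -0.03 for Cox6a1, -0.05 for Cox6b1, 0.04 for Cox6b2 and -0.04 for Cox8a. In LKO females mt-Nd6 was 0.00 with limma-voom and with scaling without mitochondrial genes, -0.02 with upper quartile scaling, -0.08 with library totals and -0.01 with the 1 CPM filter, and Cox6b2 was 0.10 without female floxed 4 and LKO 7. For the difference, mt-Nd2 was -0.02 with upper quartile scaling, -0.07 with library totals, 0.00 with no filter and -0.05 without those females, mt-Nd3 was -0.05 with library totals and -0.02 without those females, and mt-Co2 was 0.10 without male floxed 1 and 2. With 1 library left out, ranges crossing 0 were, in LKO males, -0.05 to 0.01 for Cox4i1, -0.03 to 0.09 for Sdhb, 0.00 to 0.11 for Uqcr11, -0.04 to 0.04 for mt-Co1, -0.14 to 0.02 for mt-Co3 and -0.03 to 0.05 for mt-Nd1. In LKO females they were -0.24 to 0.28 for Cox6b2, -0.10 to 0.01 for Ndufa4 and -0.07 to 0.06 for mt-Nd6, for the difference -0.11 to 0.11 for mt-Co2, -0.03 to 0.05 for mt-Nd2 and -0.03 to 0.11 for mt-Nd3, and over both sexes -0.04 to 0.02 for mt-Nd5.

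Replicate numbers recur between males and females only. Over the 8 same-numbered pairs the correlation of deviations from the group means ran from -0.18 to 0.21, and 4 of 16 libraries correlated best with their own number, so the numbers do not pair the mice. With a replicate block the nuclear count between floxed females and floxed males was 13, and the other counts were as without it, 13 mitochondrial calls there and 0 mitochondrial and 1 nuclear for the difference. Of all genes, 18.2% were then called between floxed females and floxed males and 2.9% for the difference. No paired analysis was possible because LKO and floxed mice of 1 sex share no replicate number.

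Depth limits the low genes most: mt-Atp8 had 23 to 69 counts per female liver. With library totals the median of all genes moved to -0.08 in LKO females and 0.07 between floxed females and floxed males.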
